A study of Mus musculus with 9 samples.

Results

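The BCL2 family decides whether a cell under stress lets its mitochondria release the proteins that start apoptosis. The 10 members described here were the rows of the deposited gene count table whose symbol was Bcl2, Bcl2l1, Mcl1, Bax, Bak1, Bid, Bad, Bbc3, Pmaip1 or Bcl2l11, out of 54532 gene identifiers, and each symbol matched 1 identifier. The rule used symbols and no measured value.

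As background, the proteins of the family fall into 3 groups by what they do at the outer mitochondrial membrane. BAX and BAK1 are the effectors, which assemble into pores through which cytochrome c escapes to activate the caspases. BCL2, BCL-XL (encoded by Bcl2l1) and MCL1 hold the effectors in check, and the BH3-only proteins BID, BAD, PUMA (Bbc3), NOXA (Pmaip1) and BIM (Bcl2l11) pass on stress signals by binding the guardians or by engaging the effectors directly. In the heart, MCL1 is known to be needed for the upkeep of cardiomyocytes, and loss of these cells through mitochondrial death pathways is a known part of reperfusion injury. Much of the control of the family lies in protein cleavage, phosphorylation, turnover and location, none of which an RNA measurement sees.

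RNA was measured in hearts of wild-type male C57BL/6J mice, 8 to 10 weeks of age, in 3 groups of 3 libraries. In the sham group the suture was passed under the left anterior descending coronary artery and not tied. In the MIRI group (myocardial ischemia/reperfusion injury) the artery was closed for 30 min and then opened for 24 h. In the GXNI group the same injury was combined with Guanxinning injection, an herbal preparation, at 9 mL/kg through the tail vein within 10 min of the start of ischemia, while the other groups received saline. The study states that the animals within each group were independent, although the labels number the libraries without naming the animals. The p-values below test a difference between groups against the spread of libraries within them. All MIRI and GXNI hearts carried the injury.

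Library totals ran from 17119454 to 22811295 counts, so that 3 counts corresponded to between 0.132 and 0.175 CPM, the normalized counts scaled to a common library size. The labels name cardiomyocytes as the cell type, but markers of endothelial cells, fibroblasts and macrophages were counted in every library, and the extracts were of heart tissue. In bulk tissue, fewer cells of a type and less RNA per cell cannot be told apart. Along the first principal component of 15207 genes, which took up 64.8% of the variance, the sham libraries lay at -57.9, -60.1 and -52.2. The MIRI libraries lay at 61.6, -43.9 and 83.6, and the GXNI libraries at -43.6, 18.6 and 93.9. MIRI 2 thus lay beside the sham libraries and GXNI 1, far from the other MIRI libraries, and GXNI 3 lay furthest from sham of all. By rank correlation over genes, none of the 6 injured hearts had its nearest library in its own group: MIRI 1 and MIRI 3 were nearest to GXNI 3, MIRI 2 to GXNI 1, GXNI 1 to sham 1, GXNI 2 to MIRI 1 and GXNI 3 to MIRI 3. Whether the labels are right was not tested. The fits of the members were made with all libraries, by their labels, and again without the libraries labelled MIRI 2 and GXNI 3. That second set was chosen with the values known, and its smaller p-values are no independent support for any difference.

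The members spanned a range of levels that their order in sham hearts makes plain. Levels between genes were compared as CPM per kb of exon. The length took in all annotated exons of a gene, from 1576 bases for Bax to 9157 for Bcl2, whichever transcripts were present. The order depends on this length, as Bcl2l11 lay above Bad in CPM in sham hearts and below it per kb. Mcl1 stood first in sham hearts at 75.1 ± 7.18 CPM per kb (SD, n = 3), with no overlap with the next member. Bcl2l1 followed at 15.2 ± 8.88, Bax at 11 ± 1.21 and Bak1 at 8.94 ± 0.921, all in CPM per kb. The ranges of Bcl2l1 and Bax overlapped, as did those of Bax and Bak1, so the order of these neighbours was not larger than their spread. Bad came next at 5.61 ± 0.546 CPM per kb and was apart from the members on either side of it. Bcl2l11 (2.29 ± 0.272) and Bbc3 (2.21 ± 0.283) overlapped. Bcl2, the member that gave the family its name, reached 0.740 ± 0.0160 CPM per kb, above Bid at 0.418 ± 0.0597 and Pmaip1 at 0.248 ± 0.0307. The first 5 places were the same in MIRI and GXNI hearts, while Bbc3 and Bcl2l11 changed places and Bcl2, Bid and Pmaip1 overlapped there.

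**Figure D1:**
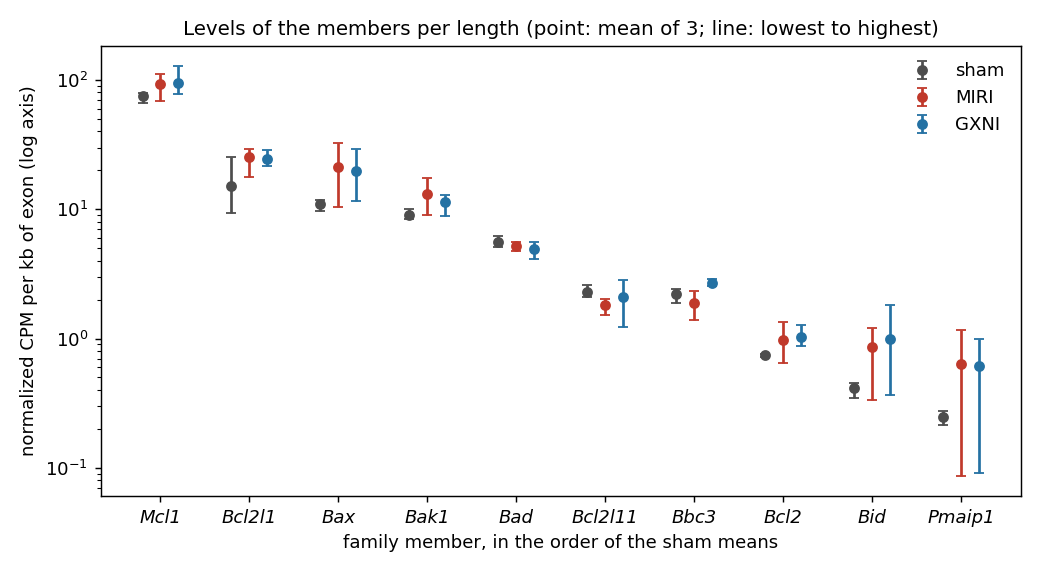
Level of each BCL2 family member per kb of exon, on a log axis, in sham, MIRI and GXNI hearts. Points are means of 3 libraries and lines run from the lowest to the highest library. Mcl1 lies above all other members in each group, and the lines of Bid and Pmaip1 are long in MIRI and GXNI and short in sham.

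The comparison of MIRI with sham asks what ischemia and reperfusion changed. Calls required a 1.5-fold difference together with an unadjusted p no higher than 0.01 in edgeR's quasi-likelihood test, thresholds taken from the methods of the study. With all libraries, 0 of the 10 members were called, against 8.97% of the 14644 genes tested. At an unadjusted p under 0.05 the edgeR test held 1 member, Bax, where 28.3% of all genes passed. DESeq2 called 0 members, against 8.07% of its genes, and held 2 at that p, where 16.3% of its genes passed. The median log2 fold change of the members was 0.476, and that of all genes tested was -0.00151. Without the library labelled MIRI 2, which is the only one of the doubted pair in this comparison, 4 members were called and all 4 were higher in MIRI: Bax, Bak1, Bid and Pmaip1. In that fit 30.2% of 15207 genes were called, and 6 members but also 43.1% of all genes had an adjusted p of at most 0.05, so the share of members called was not far from that of the genome.

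Bax encodes the effector that moves from the cytosol to the mitochondria on activation. Its level was 15.1, 18.1 and 18.7 CPM in the sham libraries, 33.3, 16.5 and 51.0 CPM in the MIRI libraries, and 18.4, 29.4 and 46.0 CPM in the GXNI libraries. MIRI 1 and MIRI 3 lay above every sham library while MIRI 2 lay among them, so the groups overlapped. The log2 fold change of MIRI against sham was 0.97 (SE 0.38), with an adjusted p of 0.156 in edgeR. Leaving out the library labelled MIRI 2 gave 1.29 (SE 0.20), with an adjusted p of 0.00210 in edgeR. With no filter on low counts, Bax alone among the members was called with all libraries, at a log2 fold change of 0.96.

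The promoter window of Bax is shown because, of the pathway lists described further on, that of p53 and its targets held the most genes called in MIRI against sham, with all libraries and without MIRI 2. The window runs from 250 bases before to 50 bases after the start site, from RefSeq on GRCm38.p6, minus strand, chr7:45466849-45467148. Capitals mark, from left to right, a match to the p53 half-site, whose first base lies at -201 from the start site, and 2 copies of the E-box CACGTG at -9 and 35.
Bax: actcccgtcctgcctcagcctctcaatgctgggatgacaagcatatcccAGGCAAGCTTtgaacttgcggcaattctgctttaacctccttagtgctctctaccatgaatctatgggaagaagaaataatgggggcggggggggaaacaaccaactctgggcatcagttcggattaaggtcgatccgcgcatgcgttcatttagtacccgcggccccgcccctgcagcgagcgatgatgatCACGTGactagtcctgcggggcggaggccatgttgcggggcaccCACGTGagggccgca
A p53 half-site was found in 8.36% of 32851 promoter windows of the same length on either strand, and an E-box in 7.15%. Such a match describes letters in a window and says nothing of binding in these hearts.

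Bak1 encodes the effector that resides at the mitochondrial membrane. The sham libraries held 20.2, 20.3 and 24.1 CPM, the MIRI libraries 30.01, 21.9 and 42.2 CPM, and the GXNI libraries 21.4, 30.8 and 29.9 CPM. The pattern was that of Bax with a smaller span, with MIRI 2 and GXNI 1 inside the sham range. In MIRI against sham the log2 fold change was 0.55 (SE 0.25, adjusted p = 0.195 in edgeR), and 0.75 (SE 0.17, adjusted p = 0.0110) without the library labelled MIRI 2.

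Of the guardians, Mcl1 was the most abundant per kb and had the smallest fitted difference. Its protein is known to have a short half-life, so that its amount follows ongoing transcription and translation. The sham libraries held 270.8, 271.1 and 228.4 CPM of Mcl1, the MIRI libraries 341.3, 235.1 and 380.9 CPM, and the GXNI libraries 264.7, 268.9 and 434.4 CPM. The library labelled GXNI 3 was the highest of the 9 and MIRI 2 lay within the sham range. The log2 fold change of MIRI against sham was 0.32 (SE 0.21, adjusted p = 0.330 in edgeR) and 0.50 (SE 0.12, adjusted p = 0.0149) without the library labelled MIRI 2, which stays below the fold threshold.

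Bcl2 itself was read from few fragments, at 99 to 286 counts per library. The sham libraries lay close together at 6.93, 6.63 and 6.77 CPM. The MIRI libraries held 8.52, 5.88 and 12.3 CPM and the GXNI libraries 8.04, 8.82 and 11.6 CPM. All 3 GXNI libraries lay above all 3 sham libraries, whereas the MIRI libraries lay on both sides of them. The log2 fold change was 0.40 (SE 0.28, adjusted p = 0.365 in edgeR) in MIRI against sham and 0.49 (SE 0.20, adjusted p = 0.243 in edgeR) in GXNI against sham. Without MIRI 2 the former was 0.62 (SE 0.19, adjusted p = 0.0358), and the latter was 0.32 (SE 0.16, adjusted p = 0.365) without the library labelled GXNI 3.

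Bcl2l1, which encodes BCL-XL, was decided by 1 sham library. Its level was 116.5, 49.7 and 42.8 CPM in the sham libraries, 134.2, 81.8 and 134.9 CPM in the MIRI libraries and 98.6, 108.1 and 132.1 CPM in the GXNI libraries. Sham 1 lay among the injured hearts, and sham 2 and sham 3 lay below every injured heart. The log2 fold change of MIRI against sham was 0.75 (SE 0.41, adjusted p = 0.264 in edgeR) and 1.34 (SE 0.28, adjusted p = 0.253 in edgeR) without sham 1. For GXNI against sham it was 0.71 (SE 0.38, adjusted p = 0.322) and 1.29 (SE 0.20, adjusted p = 0.411 in edgeR) without sham 1. Both values passed the call rule without sham 1, in fits that called 3.72% and 1.77% of all genes, and did not with it. Leaving out MIRI 2 in place of sham 1 gave 0.95 (SE 0.39, adjusted p = 0.0842 in edgeR) for MIRI against sham.

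A list of 8 genes known to respond to glucocorticoids (Fkbp5, Zbtb16, Tsc22d3, Per1, Sgk1, Klf9, Ddit4 and Cebpd) was looked at after sham 1 was seen to stand apart in Bcl2l1. All 8 genes were counted in every group. Their summed level was 1321 CPM in sham 1, against 598.5 CPM in sham 2 and 461.9 CPM in sham 3. The MIRI libraries ranged from 797.2 to 851.4 CPM and the GXNI libraries from 829.7 to 1054 CPM. Sham 1 was thus the highest library for this sum and the other sham libraries the lowest. The genes of the list did not all differ alike between MIRI and sham. Without sham 1, the log2 fold change of MIRI against sham was -0.35 for Klf9 and -0.009 for Tsc22d3. The other genes ranged from 0.556 for Zbtb16 to 1.59 for Cebpd in that fit. All 8 values were higher without sham 1 than with all libraries, where Klf9 had -0.539 and Tsc22d3 -0.447. The part of the high sum in sham 1 in the Bcl2l1 values was not tested.

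Bid encodes the protein that links death receptors to the mitochondria once caspase-8 has cut it. It was read from 20 to 111 counts per library. The sham libraries held 1.61, 1.24 and 1.60 CPM, the MIRI libraries 3.65, 1.19 and 4.29 CPM, and the GXNI libraries 1.30, 2.86 and 6.44 CPM. MIRI 1, MIRI 3, GXNI 2 and GXNI 3 lay above every sham library, and MIRI 2 and GXNI 1 did not. For Bid the log2 fold change of MIRI against sham was 1.05 (SE 0.47, adjusted p = 0.195 in edgeR), and 1.43 (SE 0.25, adjusted p = 0.00391) without the library labelled MIRI 2.

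Pmaip1 encodes NOXA, a known p53 target that binds MCL1. It was the least abundant member, at 4 to 74 counts per library. The sham libraries held 0.752, 0.693 and 0.586 CPM, the MIRI libraries 1.78, 0.238 and 3.17 CPM, and the GXNI libraries 0.250, 2.71 and 2.09 CPM. The library labelled MIRI 2 and GXNI 1 were below all sham libraries and the other 4 injured hearts were above them. Its fitted log2 fold change in MIRI against sham was 1.38 (SE 0.76, adjusted p = 0.267 in edgeR), and 1.87 (SE 0.37, adjusted p = 0.00628) without the library labelled MIRI 2.

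The remaining 3 BH3-only genes had fitted values below 0 in MIRI against sham. Bbc3 encodes PUMA, which is induced by p53 and binds all of the guardians. It held 5.15, 4.01 and 4.90 CPM in the sham libraries, 4.92, 2.97 and 4.16 CPM in the MIRI libraries and 5.64, 6.16 and 5.46 CPM in the GXNI libraries. The 3 GXNI libraries were the highest of the 9. Its log2 fold change in MIRI against sham was -0.21 (SE 0.25, adjusted p = 0.593 in edgeR), and -0.04 (SE 0.21) without MIRI 2.

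Bcl2l11 encodes BIM, whose transcription FOXO factors are known to drive. It held 20.9, 16.9 and 17.3 CPM in the sham libraries, 12.3, 16.3 and 15.5 CPM in the MIRI libraries, and 22.7, 9.85 and 18.0 CPM in the GXNI libraries. All MIRI libraries lay below all sham libraries, and the GXNI libraries held both the highest and the lowest of the 9 values. For MIRI against sham its log2 fold change was -0.32 (SE 0.17, adjusted p = 0.252 in edgeR), and -0.40 (SE 0.17, adjusted p = 0.0897) without MIRI 2. This was the 1 member whose MIRI and sham libraries did not overlap, where 33.7% of all genes tested did not.

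Bad encodes a BH3-only protein controlled by phosphorylation, and relative to its level it had the narrowest range of the members over the 9 libraries. It ranged from 13.1 to 15.8 CPM in sham, from 12.1 to 14.2 CPM in MIRI and from 10.6 to 14.2 CPM in GXNI hearts. The groups overlapped, and its log2 fold change in MIRI against sham was -0.11 (SE 0.15, adjusted p = 0.645 in edgeR), and -0.12 (SE 0.15) without MIRI 2.

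**Figure D2:**
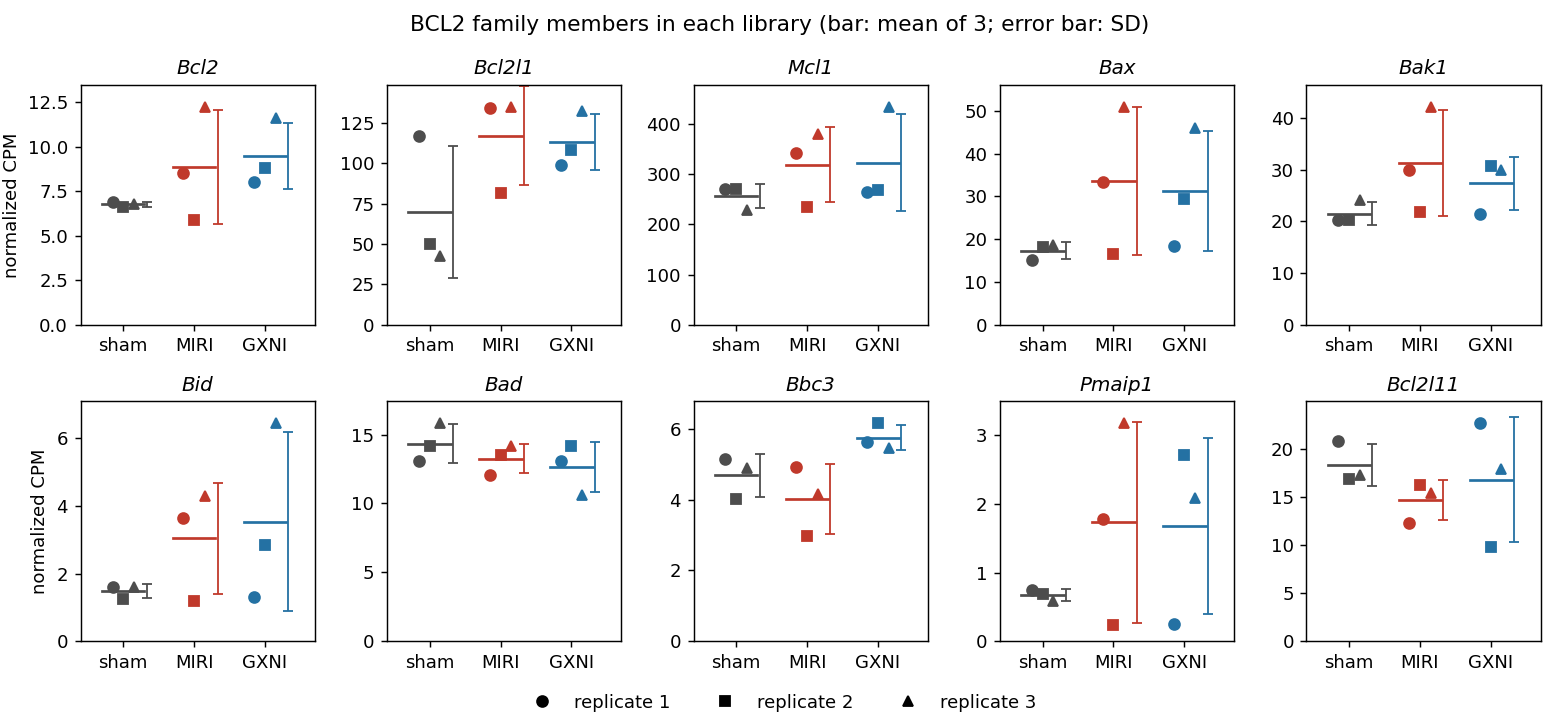
Normalized CPM of the 10 members in each library, with 1 panel per gene and its own axis from 0. Symbols mark the replicate number, horizontal bars the mean of 3 libraries and error bars the SD. In Bax, Bak1, Bid and Pmaip1 the square of MIRI (replicate 2) and the circle of GXNI (replicate 1) lie near the sham libraries, and in Bcl2l1 the circle of sham (replicate 1) lies among the injured hearts.

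The promoter windows of Bbc3 and Bcl2l11 are shown beside that of Bax, as these BH3-only genes did not share its pattern over the libraries. Bad did not share it either, and its windows held no match to the motifs below. Bbc3 and Bcl2l11 each had more than 1 window, and the first is printed for each. Both are 300-base windows from RefSeq on GRCm38.p6, plus strand, at chr7:16309333-16309632 for Bbc3 and chr2:128125788-128126087 for Bcl2l11. Capitals mark 2 overlapping matches to the NF-kappa-B site in Bbc3, at -137 and -136 from the start site, and the reverse complement of the FOXO motif TGTTTAC in Bcl2l11, at -227.
Bbc3: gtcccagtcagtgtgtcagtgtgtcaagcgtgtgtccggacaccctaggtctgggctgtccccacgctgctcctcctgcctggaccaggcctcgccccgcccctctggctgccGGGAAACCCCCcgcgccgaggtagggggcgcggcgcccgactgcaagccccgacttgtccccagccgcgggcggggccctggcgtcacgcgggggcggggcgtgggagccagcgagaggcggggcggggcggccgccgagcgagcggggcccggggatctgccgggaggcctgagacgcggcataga
Bcl2l11: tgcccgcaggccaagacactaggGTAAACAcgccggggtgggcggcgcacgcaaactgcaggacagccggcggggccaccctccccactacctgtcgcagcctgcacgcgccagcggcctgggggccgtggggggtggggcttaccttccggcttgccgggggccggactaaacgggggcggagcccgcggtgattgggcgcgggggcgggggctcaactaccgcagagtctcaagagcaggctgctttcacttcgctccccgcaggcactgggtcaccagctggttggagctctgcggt
An NF-kappa-B site was found in 4.51% of all windows and the FOXO motif in 3.65%. In 15 windows of 9 members (Pmaip1 was not searched), 8 motifs were sought on both strands. They were the p53 half-site, the NF-kappa-B site, the E-box and the FOXO motif named above, the AP-1 motif TGANTCA (7.81% of all windows), the CRE TGACGTCA (1.79%), the STAT motif TTCNNNGAA (8.30%) and the C/EBP-ATF motif TGATGNAA (3.97%). The other matches were an NF-kappa-B site in a second window of Bcl2l1, and a FOXO motif and an E-box in other windows of Bbc3. No such letters were found in the windows of Bcl2, Mcl1, Bak1, Bid or Bad.

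The comparison of GXNI with MIRI asks what the injection changed in injured hearts. With all libraries, 0 of the 10 members were called in edgeR, 0 had an unadjusted p under 0.05, and DESeq2 called 0. Over all genes 0.0203% of 14762 were called and 0.318% had an unadjusted p under 0.05. The members' fitted values ran from -0.19 for Bak1 to 0.53 for Bbc3 on the log2 scale, with a median of -0.00794. Bbc3 was the 1 member whose GXNI and MIRI libraries did not overlap, where 2.7% of all genes tested did not, and its log2 fold change of 0.53 (SE 0.26, adjusted p = 1 in edgeR) did not pass. For Bid and Pmaip1 the standard errors were 0.68 and 1.0, so differences of 2-fold in either direction lay within 1 or 2 standard errors.

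Without the libraries labelled MIRI 2 and GXNI 3, edgeR called 4.99% of 14984 genes in GXNI against MIRI, and again 0 members. At an unadjusted p under 0.05 it held 1 member (Bax), where 19.1% of all genes passed. DESeq2 without those libraries called 0 members, against 4.75% of its genes. The members' median was -0.397 in edgeR. Bax had a log2 fold change of -0.81 (SE 0.31, adjusted p = 0.245 in edgeR), Bid of -0.92 (SE 0.45), Mcl1 of -0.43 (SE 0.18) and Bcl2l1 of -0.37 (SE 0.17). With all libraries the corresponding values were -0.09 for Bax, 0.21 for Bid, 0.03 for Mcl1 and -0.04 for Bcl2l1. The sign of Bid and of Mcl1 thus depended on those libraries.

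In GXNI against sham, 0 of the 10 members were called in edgeR, where 4.21% of 14695 genes were. At an unadjusted p under 0.05 there were 2 members, Bax and Bcl2, where 19.8% of all genes passed. DESeq2 called 0 members, against 5.01% of its genes, and held 3 at that p, where 12.1% of its genes passed. Bax had a log2 fold change of 0.86 (SE 0.33, adjusted p = 0.232 in edgeR), Bid of 1.26 (SE 0.57) and Pmaip1 of 1.31 (SE 0.75). Bcl2 and Bbc3 were the 2 members whose GXNI libraries all lay above sham, where 29.4% of all genes tested did not overlap. Without the library labelled GXNI 3, 3.57% of 15007 genes were called and 0 members by either tool, with values of 0.47 for Bax, 0.49 for Bid and 1.13 for Pmaip1. Without GXNI 1, 3 members were called, all higher in GXNI, at log2 fold changes of 1.13 for Bax, 1.66 for Bid and 1.83 for Pmaip1, in a fit that called 17.8% of all genes. The comparisons of MIRI and of GXNI with sham use the same sham libraries.

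**Figure D3:**
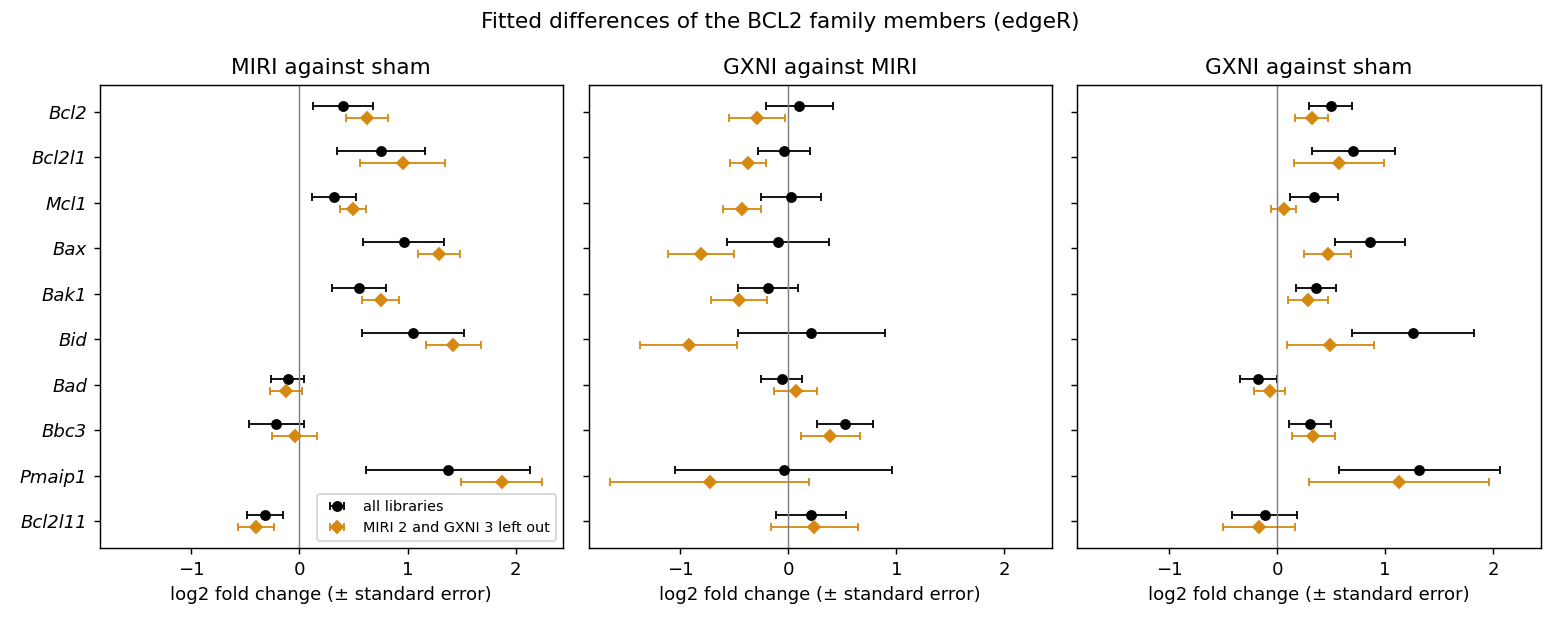
Fitted log2 fold change of each member, with its standard error, in the 3 comparisons. Black circles use all libraries and orange diamonds leave out the libraries labelled MIRI 2 and GXNI 3. In MIRI against sham the diamonds of Bax, Bak1, Bid and Pmaip1 lie further from 0 with shorter bars, and in GXNI against MIRI those of Bcl2, Mcl1, Bid and, by a small margin, Bad lie on the other side of 0.

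The balance between effectors and guardians was also read within each library. The ratio of Bax to Bcl2 per kb was 12.7, 15.9 and 16.1 in sham, 22.7, 16.3 and 24.2 in MIRI and 13.3, 19.4 and 23.0 in GXNI hearts. All MIRI values lay above all sham values, by a narrow margin in the library labelled MIRI 2, and the GXNI values spread across both ranges. The ratio of Bax to Bcl2l1 showed no such order, at 0.378, 1.06 and 1.27 in sham and 0.722, 0.588 and 1.1 in MIRI hearts. The ratio of Bax to Mcl1, the most abundant guardian, also overlapped, at 0.121, 0.145 and 0.178 in sham and 0.212, 0.152 and 0.290 in MIRI. Effector transcripts overlapped too, with 13.4% to 19.9% of the family's summed level in sham and 16.9% to 24.5% in MIRI hearts. Guardian transcripts made up 69.7% to 78.5% of the family's summed level per kb in the 9 libraries, and Mcl1 alone 53.8% to 65.6%. The summed level per kb was 134.2, 120.9 and 110.1 in sham, 173.9, 115.9 and 203.9 in MIRI and 131.4, 146.1 and 210.3 in GXNI hearts, so MIRI 2 and GXNI 1 again lay within the sham range.

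The other relatives of the family were taken from a list of 16 genes, of which 11 were tested in MIRI against sham. With all libraries 1 was called, higher in MIRI, in a fit that called 8.97% of all genes. This was Bcl2a1d, a copy of the gene for A1, a guardian known from neutrophils and other leukocytes. It held 0.591, 0.149 and 0.107 CPM in sham, 7.21, 0.297 and 7.59 CPM in MIRI and 0.250, 3.05 and 5.86 CPM in GXNI hearts. Before normalization, 3 counts were 0.142 CPM in sham 2 and 0.156 CPM in sham 3. Bcl2a1d thus lay near that level in sham 2 and sham 3, and the size of its fold change is uncertain. In MIRI against sham its log2 fold change was 4.16 (SE 1.17, adjusted p = 0.101 in edgeR). The call held in 1 of 6 fits that each left out a library, that without MIRI 2, with log2 fold changes from 3.74 to 5.24 over the 6 fits. DESeq2 called Bcl2a1a, Bcl2a1b and Bcl2a1d with all libraries, out of 15 relatives tested, where it called 8.07% of all genes. The copies Bcl2a1a, Bcl2a1b and Bcl2a1d are nearly identical in sequence, so how reads were shared among them is uncertain. With all libraries, Bcl2a1a did not pass the low-count filter of edgeR in MIRI against sham. With MIRI 2 left out it passed, and the 3 copies were called, at 4.36, 3.52 and 4.71 on the log2 scale. That fit called 30.2% of all genes.

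Neutrophil markers moved with these genes. The summed level of 14 neutrophil markers was 30.7 to 61.8 CPM in sham hearts, where Ltf was at 0 in all libraries, and 755.0, 27.6 and 686.5 CPM in the MIRI libraries. In the GXNI libraries it was 50.8, 230.7 and 713.3 CPM. The 12 cardiomyocyte markers summed to 66930 to 68140 CPM in sham, 43410, 67920 and 45090 CPM in MIRI, and 58590, 48590 and 43690 CPM in GXNI hearts. The libraries with high Bax, Bid and Pmaip1 (MIRI 1, MIRI 3, GXNI 2 and GXNI 3) were the 4 with the highest neutrophil and the lowest cardiomyocyte sums. The part of cell composition in the values of the members was not tested.

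**Figure D4:**
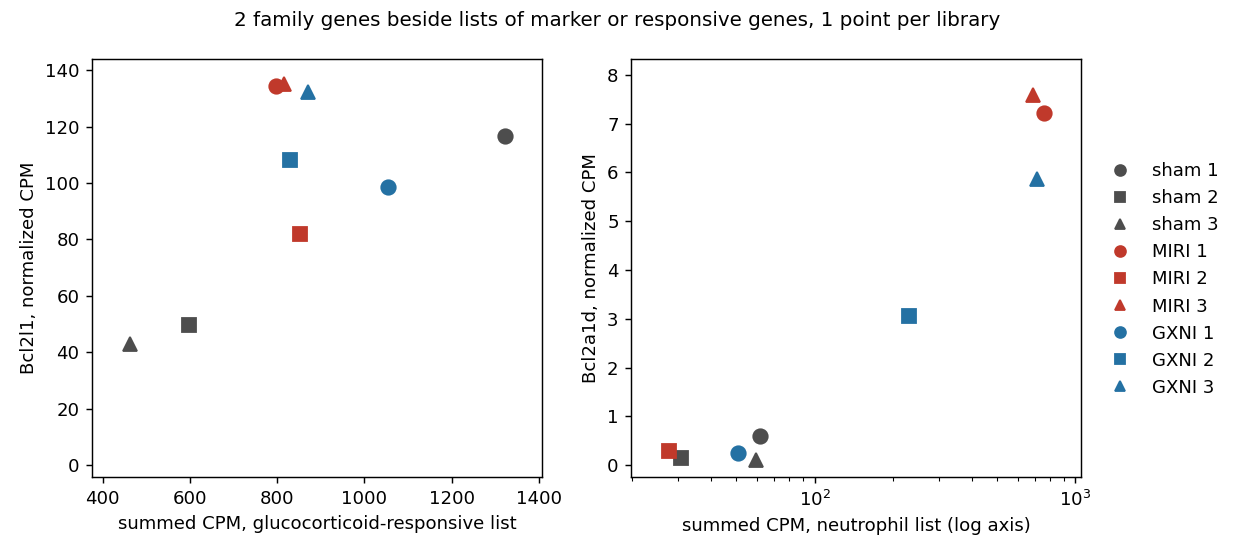
Left, normalized CPM of Bcl2l1 against the summed CPM of 8 glucocorticoid-responsive genes, and right, normalized CPM of Bcl2a1d against the summed CPM of 14 neutrophil markers on a log axis, with 1 point per library. Sham 1 lies far to the right of the other sham libraries on the left, and MIRI 2 and GXNI 1 lie with the sham libraries on the right.

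Among the other relatives, Bcl2l2, which encodes the guardian BCL-W, ranged from 48.0 to 49.9 CPM in sham and 45.2 to 55.9 CPM in MIRI hearts. Bnip3, a hypoxia-responsive gene of mitophagy, held 155.7 to 220.7 CPM in sham and 122.1 to 167.1 CPM in MIRI hearts (log2 fold change -0.37, SE 0.18). Its relative Bnip3l had a log2 fold change of 0.02 (SE 0.20). Bik (0.54, SE 0.18), Bok (0.62, SE 0.33), Bmf (-0.37, SE 0.17), Bcl2l12 (-0.46, SE 0.21) and Bcl2l13 (0.04, SE 0.19) were not called in MIRI against sham, nor without MIRI 2, where Bok had 0.81, Bnip3 -0.46 and Bcl2l13 -0.18. Hrk, a BH3-only gene, was read from 1 to 22 counts per library. It had a log2 fold change of -1.52 (SE 0.87) with all libraries and was called lower without the library labelled MIRI 2, at -3.56 (SE 0.63, adjusted p = 0.00379 in edgeR). Without that library MIRI held 1 and 2 counts, at or under the 3-count floor, so the size of this fitted value depends on the prior count.

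**Figure D5:**
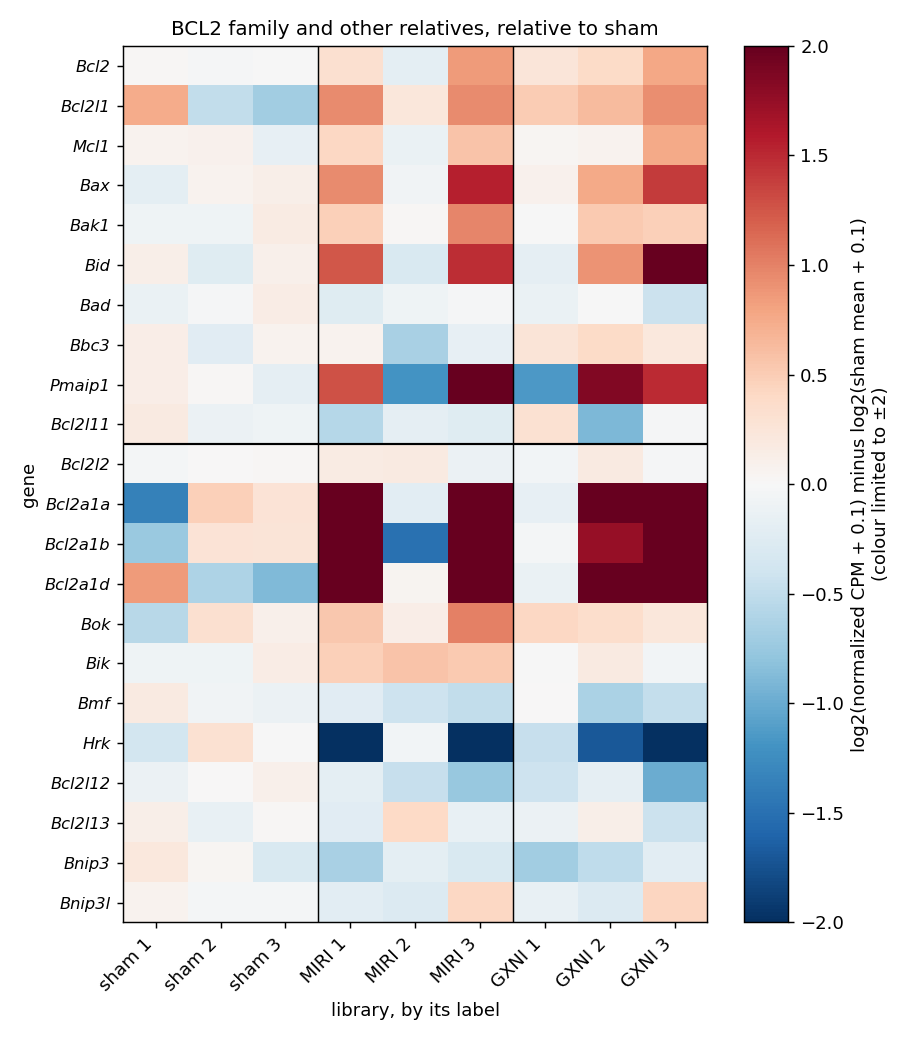
Level of the 10 members (above the line) and 12 relatives in each library, as log2(CPM + 0.1) minus that of the sham mean, with colours limited to 2 in either direction. The columns of MIRI 1, MIRI 3, GXNI 2 and GXNI 3 are red for Bax, Bid, Pmaip1 and the Bcl2a1 copies, and those of MIRI 2 and GXNI 1 are pale or blue.

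The neighbours of the family in the pathway were described by lists. Calls are those of edgeR unless DESeq2 is named, which called 8.07% of its genes in MIRI against sham. Of all genes tested, edgeR called 8.97% in that comparison with all libraries and 30.2% without MIRI 2. In GXNI against sham it called 4.21% with all libraries and 3.57% without the library labelled GXNI 3. The p53 list held 12 genes, of which 2 were called with all libraries in MIRI against sham and both were higher. These were Zmat3, at a log2 fold change of 0.69 (SE 0.19, adjusted p = 0.0972 in edgeR), and Aen, an exonuclease gene, also at 0.69 (SE 0.19, adjusted p = 0.0982 in edgeR). Each call held in 1 of 6 fits that left out a library, that without MIRI 2. Cdkn1a, the cell cycle inhibitor and best known p53 target, had 2.0 (SE 0.64, adjusted p = 0.117 in edgeR) and was not called by edgeR. DESeq2 called 5 of the 12 with all libraries, all higher: Zmat3, Aen, Cdkn1a, Trp53 and Sesn2. With MIRI 2 left out, in the fit that called 30.2% of all genes, 8 genes were called higher and 1, Ccng1, lower at -1.14 (SE 0.14). The 8 included Trp53 itself at 1.23 (SE 0.17) and Cdkn1a at 2.39 (SE 0.49). The list's median log2 fold change was 0.688 with all libraries and 0.826 without MIRI 2.

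Of 8 stress regulators of BH3-only genes, 1 was called in MIRI against sham. This was Atf3, a stress-induced transcription factor, at a log2 fold change of 4.21 (SE 0.68, adjusted p = 0.0607 in edgeR), and the call held in all 6 fits that left out a library. Foxo3, which encodes a factor known to act on Bcl2l11, had -1.36 (SE 0.43, adjusted p = 0.117 in edgeR), and Jun 0.80 (SE 0.26). DESeq2 called 5 of the 8 with all libraries, Atf3, Atf4, Trib3 and Jun higher and Foxo3 lower. Without the library labelled MIRI 2, Atf3, Atf4, Jun and Trib3 were called higher and Foxo3 lower, at -1.88 (SE 0.33). In GXNI against MIRI without the libraries labelled MIRI 2 and GXNI 3, 5 of the 8 were called lower: Atf3, Atf4, Ddit3, Jun and Trib3. That fit, chosen with the values known, called 4.99% of all genes, and 0 genes had an adjusted p of at most 0.05 in edgeR. With all libraries 0 of the 8 were called there.

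Downstream of the mitochondria, 0 of 14 genes of the apoptosome and caspase list were called in MIRI against sham by edgeR or DESeq2. Casp6 had a log2 fold change of -0.58 (SE 0.20) and Dffb, which encodes a nuclease that cuts DNA in apoptosis, of -0.51 (SE 0.23). When MIRI 2 was left out, genes called higher included Casp8 (1.38) and Apaf1 (0.91), and Aifm1 was called lower, at -0.63. The fit without MIRI 2 called 30.2% of all genes. Of the 7 death receptor genes tested 0 were called by either tool, and 4 were called higher without that library: Tnfrsf10b at 1.72, Tnfrsf1a at 0.98, Ripk1 at 0.80 and Tradd at 0.71. In GXNI against sham, Tnfrsf1a (0.83, SE 0.21) and Tnfrsf10b (1.58, SE 0.44) were called higher with all libraries and again without the library labelled GXNI 3, but neither without sham 1, sham 2 or sham 3, nor Tnfrsf1a without GXNI 2. Of the 5 inhibitors of apoptosis edgeR called 0 with all libraries in MIRI against sham, while DESeq2 called Birc3, which encodes cIAP2, at 1.22 (SE 0.46). Without MIRI 2 edgeR called Birc3 higher at 1.61 (SE 0.14).

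The last lists hold genes that act on MCL1 protein or beside the family at the mitochondrion. Of 6 genes for MCL1 turnover 0 were called in MIRI against sham with all libraries by either tool, and without MIRI 2 only Fbxw7, a ubiquitin ligase subunit, was called lower, at -0.68 (SE 0.16). Of 8 channel and fission genes 0 were called with all libraries by either tool, and without MIRI 2 only Opa1, which encodes a fusion protein of the inner membrane, was called lower, at -0.71 (SE 0.12). Ppif (-0.56), Vdac1 (-0.52) and Vdac3 (-0.46), genes of the permeability pore and the outer membrane channel, also had adjusted p-values of at most 0.05 in that edgeR fit, and Ppif, Vdac1 and Vdac3 stayed under the fold threshold. The lists' medians in MIRI against sham were -0.223 for the apoptosome and caspases, 0.509 for the death receptors, 0.109 for the inhibitors of apoptosis, 0.021 for MCL1 turnover and -0.194 for the channel and fission genes, with all libraries on the log2 scale. Without MIRI 2 they were -0.261, 0.713, 0.0945, -0.06 and -0.405 in that order.

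As a description, the genes whose log2 CPM followed each member most closely over the 9 libraries were found among 15207 genes. For Bcl2 this was Ipo9 (Pearson r = 0.995), for Bax Tfpi2 (0.992), for Bid Baz1a (0.992), for Mcl1 Sh2d3c (0.991) and for Bcl2l1 Map3k6 (0.980). The nearest genes to Bak1 and Pmaip1 were Psma5 (0.979) and Gm16556 (0.964). Bad, Bbc3 and Bcl2l11 had looser partners, at 0.953 for Mrps12, 0.950 for AC154486.3 and 0.926 for 2810021J22Rik. The 9 points of each pair share libraries, depth and the split between the hearts described above.

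Exons of 5 members overlap those of another gene, and the strand setting of the read counting is not given in the sources used here. Bak1 overlaps Ggnbp1, Bad overlaps Gpr137 and Bid overlaps Bcl2l13, each on the opposite strand. Bcl2l13 was counted at 68.3 to 120.5 CPM and Bid at 1.19 to 6.44 CPM. Ggnbp1 ranged from 11.1 to 25.4 CPM and Gpr137 from 14.5 to 30.8 CPM, beside Bak1 at 20.2 to 42.2 CPM and Bad at 10.6 to 15.8 CPM. The highest Bid level was in the library with the lowest Bcl2l13 level. The genes that overlap Bcl2 and Bax, D630008O14Rik and Gm45808, held 0 counts in all libraries but 1, which had 1 count of Gm45808.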

How the data were processed

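RNA-seq libraries of 9 hearts were analysed. The authors removed reads with adapter or poly-N sequence and reads of low quality. They aligned the rest to the mouse genome (mm10) with HISAT2 and deposited raw counts per gene made with featureCounts of Subread. The strand setting is not given in the sources used here. Symbols were matched for 54409 of 54532 identifiers. Low counts were removed with filterByExpr, TMM normalization was applied, and pairs of groups were compared on 6 libraries with edgeR 4.0.16 (quasi-likelihood F test, R 4.3.3) with Benjamini-Hochberg adjustment over all genes tested. DESeq2 1.42.0 was the alternative. The procedure was tested on simulated counts with a fixed dispersion and no library standing apart from its group. That test therefore does not cover the split between libraries seen here. The SE given with an edgeR value was derived from the test, as the absolute log2 fold change divided by the square root of F. CPM used TMM factors over 9 libraries, and lengths were union exon lengths of GENCODE M21. All 10 members, the tested relatives, up to 3 genes of each pathway list with the smallest p in MIRI against sham and the closest genes by correlation were named, together with genes called in a list, which were named after their values were seen. The members and lists were chosen with earlier results of these data known. Some genes of the pathway lists are not reported here.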

Additional observations from a re-analysis of the deposited data

How the results depend on the processing

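Between MIRI and sham, the count of genes called went from 1313 to 2251 with DESeq2, 800 with all 9 libraries in 1 fit, 2406 with no filter on low counts, 2 at an adjusted p of at most 0.05, 4592 without the library labelled MIRI 2 and 4733 with DESeq2 without it, and leaving out each library in turn gave 514 to 4592. Members called there numbered 1 with no filter, 4 without the library labelled MIRI 2 by edgeR and 4 by DESeq2, and 0 to 4 over leaving out each library. For GXNI against MIRI the count of 3 genes became 11 with DESeq2, 9 with all 9 libraries, 10 with no filter, 0 at the adjusted p, 748 without the libraries labelled MIRI 2 and GXNI 3 and 1284 with DESeq2 without them, and 1 to 12 over leaving out each library. For GXNI against sham the 618 genes became 1401 with DESeq2, 1425 with no filter and 0 at the adjusted p, and 175 to 2665 over leaving out each library, with 0 to 3 members called. The counts without a library also have fewer samples, and the cause of these shifts was not tested.

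In MIRI against sham no member's fitted value changed sign under any alternative. In GXNI against sham only that of Bcl2l11 did, at 0.16 without GXNI 2, with a range of -0.39 to 0.16 over leaving out each library. In GXNI against MIRI, 24 of 130 alternative values had the other sign. Without the libraries labelled MIRI 2 and GXNI 3 these were Bcl2 (-0.29, and -0.31 with DESeq2), Mcl1 (-0.43 and -0.44), Bid (-0.92 and -0.94) and Bad (0.068 and 0.053). Leaving out 1 library at a time gave log2 values of both signs for Bcl2 (-0.12 to 0.40), Mcl1 (-0.25 to 0.16), Bid (-0.55 to 0.61), Bad (-0.15 to 0.047), Bcl2l1 (-0.24 to 0.072), Bax (-0.49 to 0.33), Bak1 (-0.39 to 0.077), Pmaip1 (-0.58 to 0.71) and Bcl2l11 (-0.076 to 0.48).

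The labels do not say whether the replicate numbers pair the samples. The correlation of deviations from the group means of libraries with the same number ran from -0.443 to 0.701. With 3 libraries per group these values cannot settle the point. With the replicate number as a block, 1065, 3 and 573 genes were called in MIRI against sham, GXNI against MIRI and GXNI against sham, and 0 members in each. The normalization by relative log expression changed no call of a member. Low counts limited Pmaip1, Bid and Hrk, and 3 libraries per group limited every comparison.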
